A study of Mus musculus with 6 samples.

Results

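The HoxA cluster is a run of homeobox genes on mouse chromosome 6 that encode DNA-binding transcription factors. The genes described here are 8 of the 55487 genes in the deposited table, chosen by symbol: Hoxa3, Hoxa4, Hoxa5, Hoxa6, Hoxa7, Hoxa9 and Hoxa10, which are protein-coding, and Hoxaas3, a transcript annotated as antisense to the cluster. Total RNA was sequenced from 6 libraries of Kit-selected mouse bone marrow cells, 3 transduced with a lentivirus overexpressing wild type MLLT3 (WT) and 3 with one overexpressing MLLT3 K63E K67E (DM). Both groups were sorted and grown in methylcellulose, with harvest after 8 days. The medium held mFlt3L (10 ng/mL), mSCF, hEPO and hTPO with the interleukins mIL-11, mIL-6 and mIL-3 and with mGMCSF (20 ng/mL each), gentamycin (50 µg/mL) and 200 nM 4-hydroxytamoxifen, given to delete the endogenous Mllt3 in both groups. The cells of both groups thus carried an introduced MLLT3 and were meant to lack their own. The vector's promoter, the driver of the inducible deletion, the age of the mice and whether the 3 replicates came from separate mice are not stated in the sources used here, so p-values measure the spread between these libraries, which may be technical.

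HOX proteins bind DNA through a homeodomain, usually together with TALE-class partners of the MEIS, PBX and PKNOX families. In blood formation the 5′ HoxA genes, Hoxa9 and Hoxa10 above all, are active in stem and early progenitor cells and are turned down as cells mature. MLL-type methyltransferases, DOT1L and the elongation complexes that contain MLLT3 keep the locus active, Polycomb complexes repress it, and leukaemic fusions of MLL with MLLT3 hold HOXA9 on. MLLT3 carries a YEATS domain, which the series title describes as reading both histone marks and 7SK RNA, and the question here is how HoxA transcripts differ when the K63E K67E form replaces the wild type.

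Each deposited value is an rlog (regularized logarithm) in log2 units. The transformation shrinks the differences of weakly detected genes, so their changes are understated. They hold no counts, so the depth is unknown. A gene was tested if its 6-library mean reached 3, which 18766 did, and the median over them ran from 8.03 to 8.11 across the libraries. Reads of Mllt3 could come from the vector, from any remaining endogenous gene or from both, and these origins were not told apart. Mllt3 averaged 12.64 ± 0.216 (SD, n = 3) in the WT libraries and 12.16 ± 0.249 in the DM libraries. Its limma change was -0.48 (SE 0.137, adjusted p 0.0448). That call was lost in 7 of 14 alternative settings, including the omission of WT replicate 1 or 2 or of DM replicate 2 or 3. Kit, the receptor used to select the cells, was abundant in both groups at 14.39 ± 0.157 in WT and 14.6 ± 0.296 in DM (adjusted p 0.368).

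Hoxa9 and Hoxa7 had the largest falls of the tested members in DM, Hoxa10 and Hoxa5 fell less, and Hoxa3, Hoxa4 and Hoxa6, whose means lay not far above the minimum of 3 set for testing, fell by less than 0.2 on the log2 scale. Hoxaas3 was lower by 0.04 in mean and its groups overlapped. With limma and Benjamini-Hochberg adjustment over all tested genes, 7 of the 7 tested members were lower in DM at an adjusted p under 0.05, where 4.71% of all tested genes were, while 9.2% were called higher and 13.9% in either direction. Their values were all above 3 in every library (lowest 3.12), so none passed the filter through the WT group alone. In each of the 7 every DM library lay below every WT library, which held for 14.3% of all tested genes (35.8% had groups apart in either direction). The median change of the 7 was -0.3, against 0.01 over all tested genes.

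**Figure D1:**
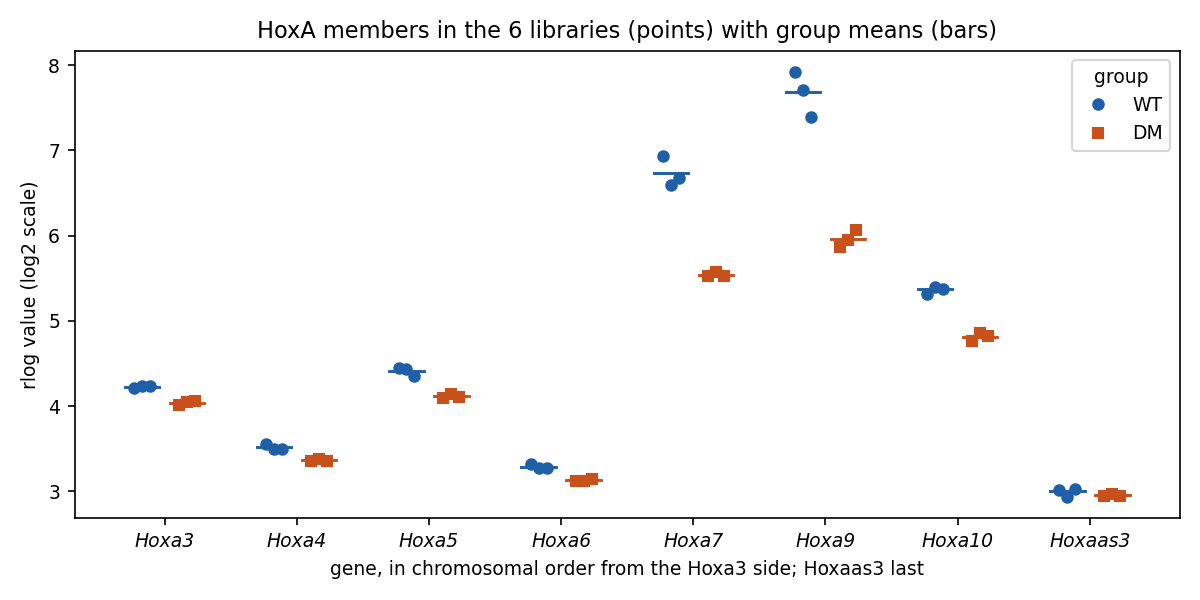
Rlog values (log2 scale, vertical axis) of the 8 HoxA members (horizontal axis) in the 3 WT libraries (circles) and 3 DM libraries (squares), with bars at the group means. The groups are separate for Hoxa3 to Hoxa10, most widely for Hoxa9 with a gap of 1.32, and overlap for Hoxaas3.

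Hoxa9 (ENSMUSG00000038227.15; GRCm38, chr6:52223100-52231089, minus strand) encodes the HOX factor most closely tied to stem cell function and to MLL-rearranged leukaemia. In order of replicate number, its rlog values were 7.92, 7.71 and 7.39 for WT, then 5.87, 5.95 and 6.07 for DM. The lowest WT library stood 1.32 above the highest DM library, while the spread was 0.53 within WT and 0.21 within DM. The mean went from 7.68 ± 0.268 (SD, n = 3) to 5.96 ± 0.104, a change of -1.71 (SE 0.123, 95% interval -1.99 to -1.44, limma adjusted p 0.000118). Taken from the rlog difference, the DM level was 30.5% of the WT level on the linear scale (95% interval 25.2% to 36.9%). This percentage and those of the other members carry the rlog shrinkage, which their intervals do not cover. It was the 15th most lowered of the 18766 tested genes.

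Hoxa7 (ENSMUSG00000038236.8; chr6:52214491-52221854, minus strand), the next Hox gene in the 3′ direction, is another MLL target often expressed with Hoxa9. It read 6.93, 6.6 and 6.68 in WT and 5.53, 5.57 and 5.53 in DM. The gap between the groups was 1.03 and the 3 DM libraries lay within 0.05 of each other. The change was -1.19 (SE 0.0881, 95% interval -1.39 to -0.99, limma adjusted p 0.000118). Taken from the rlog difference, this left 43.8% of the WT level (95% interval 38.2% to 50.2%). Hoxa7 and Hoxa9 were the 2 members lowered by at least 1 on the log2 scale, a size of fall called for 0.368% of all tested genes.

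Hoxa10 (ENSMUSG00000000938.11; chr6:52231197-52240854, minus strand) lies on the 5′ side of Hoxa9 and encodes a factor with roles in stem cell self-renewal and in the megakaryocyte and erythroid lineages. Its values were 5.32, 5.4 and 5.38 in WT and 4.77, 4.86 and 4.82 in DM. All 3 DM libraries were lower, by a gap of 0.47 against a spread of 0.08 and 0.09 within the groups. The change was -0.55 (SE 0.0575, 95% interval -0.68 to -0.43, limma adjusted p 0.000687), or 68.1% of the WT level as taken from the rlog difference.

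Hoxa5 (ENSMUSG00000038253.6; chr6:52201754-52204587, minus strand) encodes a factor with roles in the choice between myeloid and erythroid fates. It read 4.45, 4.44 and 4.36 for WT, then 4.1, 4.14 and 4.11 for DM, again without overlap. The change was -0.3 (SE 0.0494, limma adjusted p 0.00636), or 81.4% of the WT level as taken from the rlog difference (95% interval 75.5% to 87.9%). At this low level rlog understates changes, and the interval does not cover that shrinkage.

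The windows before the annotated starts are given for Hoxa9, Hoxa10 and Hoxa5, the members with stable calls whose windows hold no annotated exon, to show the DNA just before the genes that fell. The Hoxa9 window and the inner Hoxa10 window lie inside the annotated bounds of their own genes. RefSeq start sites on GRCm38.p6 were matched by symbol for 6 of the 8 members (7 windows), and the 250 bases before each start were searched on both strands. The motifs were TATAAA, the core promoter element, then TTTATG (a core bound by CDX factors), TGATNNAT (an element bound by PBX with HOX), TGACAG (a core bound by MEIS) and CCAAT. No match overlapped another in the windows shown, capitals mark matches, and each sequence reads 5′ to 3′ on the minus strand.
Hoxa9, chr6:52227371-52227620: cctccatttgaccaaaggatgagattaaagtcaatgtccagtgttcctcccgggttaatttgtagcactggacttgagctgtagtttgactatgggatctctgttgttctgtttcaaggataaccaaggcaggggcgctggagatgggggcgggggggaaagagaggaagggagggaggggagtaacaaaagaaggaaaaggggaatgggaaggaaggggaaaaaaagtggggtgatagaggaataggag
Hoxa10, upstream start, chr6:52240855-52241104: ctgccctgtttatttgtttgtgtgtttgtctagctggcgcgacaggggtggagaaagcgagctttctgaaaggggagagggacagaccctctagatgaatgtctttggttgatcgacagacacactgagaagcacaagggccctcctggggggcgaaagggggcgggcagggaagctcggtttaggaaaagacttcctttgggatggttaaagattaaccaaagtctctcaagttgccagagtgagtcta
Hoxa10, inner start, chr6:52234940-52235189: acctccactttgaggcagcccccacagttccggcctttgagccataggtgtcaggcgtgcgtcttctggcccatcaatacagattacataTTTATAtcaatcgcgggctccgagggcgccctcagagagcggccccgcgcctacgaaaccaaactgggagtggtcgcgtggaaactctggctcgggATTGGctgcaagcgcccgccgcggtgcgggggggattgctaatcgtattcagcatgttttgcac
Hoxa5, chr6:52204588-52204837: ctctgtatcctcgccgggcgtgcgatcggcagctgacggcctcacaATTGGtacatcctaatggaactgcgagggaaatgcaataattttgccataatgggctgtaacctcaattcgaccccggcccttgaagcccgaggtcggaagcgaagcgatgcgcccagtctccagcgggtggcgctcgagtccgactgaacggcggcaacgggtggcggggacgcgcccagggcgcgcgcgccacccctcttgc

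The Hoxa9 window and the upstream Hoxa10 window hold none of the 5 motifs, which says only that these letters are not in these windows. The inner Hoxa10 window holds TATAAA, found in 12.4% of the 32851 windows of this length, and CCAAT, found in 33.8%, both on the opposite strand. The Hoxa5 window holds CCAAT on the opposite strand. Of the windows not shown, that of Hoxa7 holds TTTATG at 2 places (10.8% of all windows hold it), that of Hoxa6 holds CCAAT and that of Hoxa3 holds TGACAG (15.9%). TGATNNAT, present in 7.68% of all windows, was in none of the 7. The Hoxa9 window has 3 CpG dinucleotides, the upstream Hoxa10 window 7, the inner one 20 and the Hoxa5 window 28, against a median of 6 over all windows.

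The remaining coding members were at the low end of the tested range. Hoxa3 (ENSMUSG00000079560.13; chr6:52169062-52213336, minus strand), a patterning gene of the pharyngeal region, read 4.21, 4.24 and 4.24 in WT and 4.02, 4.05 and 4.06 in DM. Hoxa4 (ENSMUSG00000000942.10; chr6:52189671-52191753, minus strand) read 3.56, 3.5 and 3.5 in WT and 3.36, 3.38 and 3.36 in DM. Hoxa6 (ENSMUSG00000043219.9; chr6:52206288-52208722, minus strand) read 3.32, 3.27 and 3.27 in WT and 3.12, 3.12 and 3.15 in DM. In these 3 genes the groups were apart by 0.12 to 0.16, and the closest pair of DM libraries for Hoxa6 differed by 7.5e-05. Their limma changes were -0.19 (SE 0.0446, adjusted p 0.0214) for Hoxa3, -0.15 (SE 0.0394, adjusted p 0.0311) for Hoxa4 and -0.16 (SE 0.037, adjusted p 0.0201) for Hoxa6.

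These 3 calls depended on the processing. Quantile normalization across libraries took the adjusted p of Hoxa3 to 0.105 (change -0.12), of Hoxa4 to 0.218 (-0.09) and of Hoxa6 to 0.133 (-0.1), and each call was also lost without WT replicate 1 and without any one of the DM libraries. The fits of Hoxa5, Hoxa7, Hoxa9 and Hoxa10 passed the threshold in every alternative in which they were tested, 13 for Hoxa5 and 14 for each of the others.

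**Figure D2:**
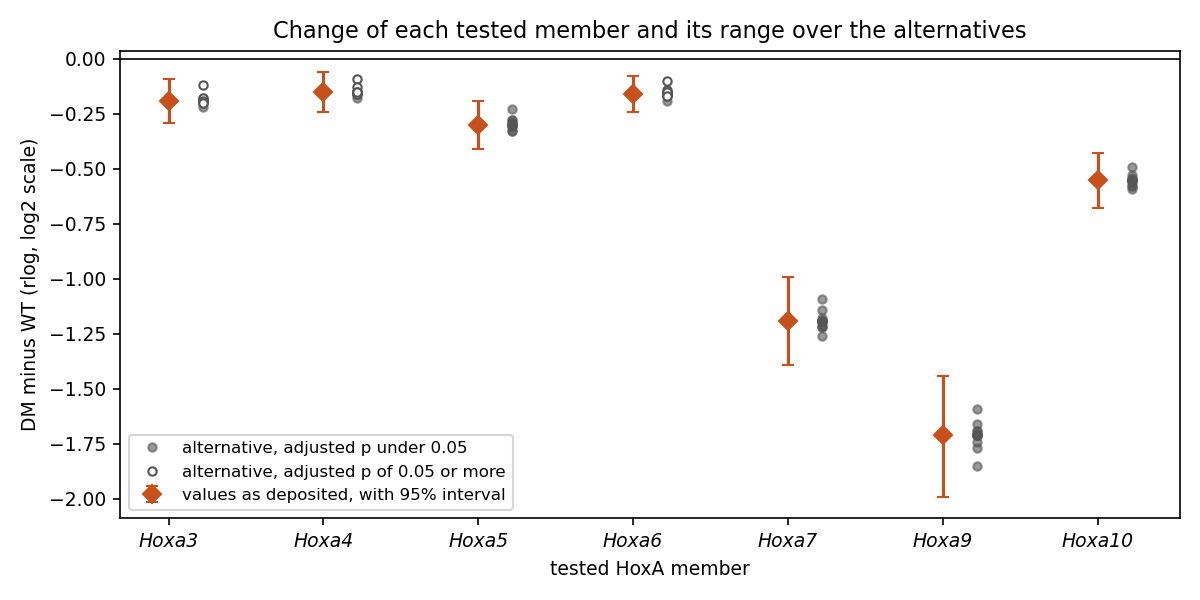
Change of each tested member from WT to DM (vertical axis, rlog difference on the log2 scale): diamonds give the values as deposited with 95% intervals, and circles beside them the alternative settings, filled where the adjusted p was under 0.05 and open otherwise. The changes of Hoxa7 and Hoxa9 stay below -1 throughout, and open circles appear for Hoxa3, Hoxa4 and Hoxa6 alone.

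Hoxaas3 (ENSMUSG00000085696.8; chr6:52175217-52215076, plus strand) runs opposite to the coding genes over the stretch from Hoxa3 to Hoxa7. Its values were 3.02, 2.94 and 3.03 in WT and 2.95, 2.97 and 2.95 in DM. The lowest value of all belonged to a WT library, so the groups overlapped. Its mean of 2.98 was below the filter, so it was not tested in the filtered fit. Without the filter the limma change was -0.04 (adjusted p 0.603).

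Whether reads were counted by strand is not given in the sources used here, so reads from overlapping genes on opposite strands cannot be told apart. In GENCODE M21, 30.6% of the exonic bases of Hoxaas3 lie on exons of other genes of the opposite strand, 586 bases with Hoxa7 and 297 with Hoxa3. Opposite-strand exons cover 25.4% of the exonic bases of Hoxa3, 20.4% of Hoxa7 and 16% of Hoxa4. No exonic base of Hoxa5, Hoxa6, Hoxa9 or Hoxa10 lies on an opposite-strand exon.

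Because rlog values compress low genes, each member was set beside the tested genes whose mean lay within 0.25 of its own. Hoxa9 had the largest fall of 561 such genes, and Hoxa7 the largest of 617. Hoxa10 ranked 3 of 854, Hoxa5 ranked 4 of 1208 and Hoxa6 ranked 7 of 1606. Hoxa4 ranked 61 of 1610 and Hoxa3 ranked 105 of 1248. Of the 7, 5 thus ranked among the 7 most lowered genes at their own level, and Hoxa3 and Hoxa4 lay further in. The median change of the genes at the level of Hoxa3, Hoxa5 and Hoxa6 was -0.06, and -0.07 at that of Hoxa4. At the level of Hoxa9 that median was 0.0, and at that of Hoxa7 -0.02.

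**Figure D3:**
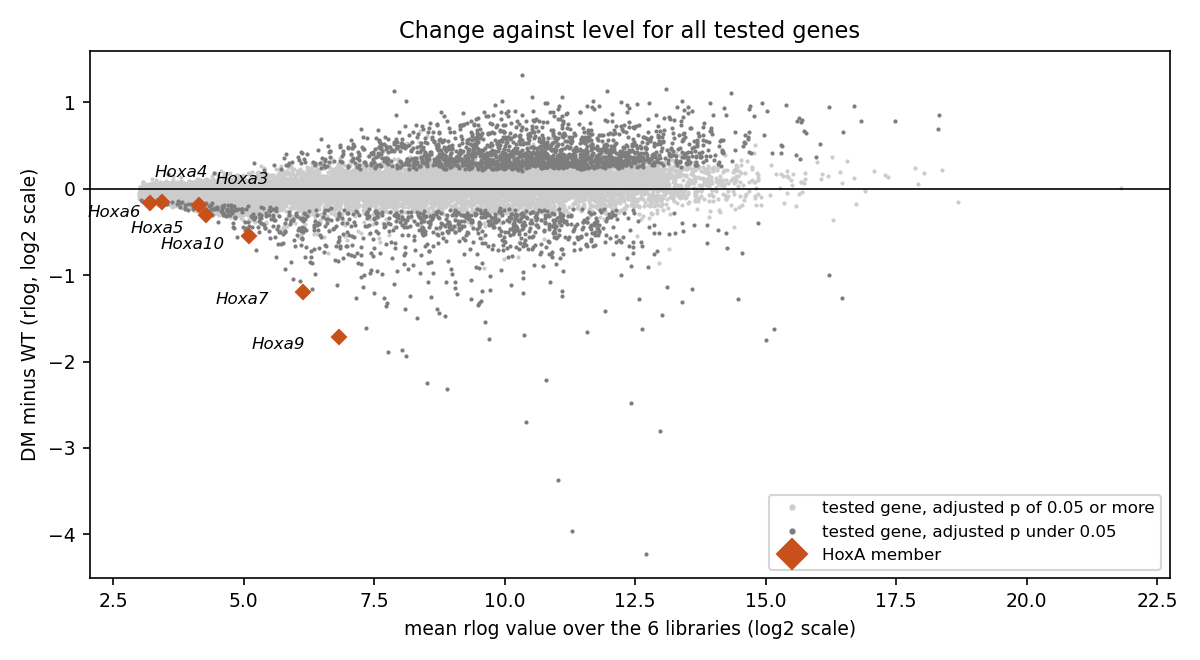
Change from WT to DM (vertical axis, rlog difference on the log2 scale) against the mean rlog value over the 6 libraries (horizontal axis) for all 18766 tested genes, with the 7 tested HoxA members as diamonds. The diamonds run from a mean of 3.21 for Hoxa6 to 6.82 for Hoxa9, near the lower edge of the cloud for 5 members and further in for Hoxa3 and Hoxa4.

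Levels of different genes were compared after division by the union exon length in kilobases, on the log2 scale. In WT, Hoxa7 (5.21 ± 0.173, SD, n = 3) and Hoxa9 (5.2 ± 0.268) led and their ranges overlapped. Hoxa10 followed at 3.66 ± 0.0406, then Hoxa5 at 3.51 ± 0.0514 and Hoxa6 at 3.48 ± 0.0278, the last 2 with overlapping ranges. Hoxa4 (2.85 ± 0.0354), Hoxa3 (1.64 ± 0.0164) and Hoxaas3 (1.46 ± 0.0472) were lowest. In DM the order of per-length levels was Hoxa7 (4.02 ± 0.026), Hoxa9 (3.48 ± 0.104), Hoxa6 (3.32 ± 0.0198), Hoxa5 (3.21 ± 0.0215), Hoxa10 (3.11 ± 0.046), Hoxa4 (2.7 ± 0.0108), Hoxa3 (1.45 ± 0.0198) and Hoxaas3 (1.43 ± 0.0101). In that order the ranges of Hoxa3 and Hoxaas3 overlapped and those of the other neighbours did not. Both orders depended on the length used. With the longest transcript, Hoxa10 came right after Hoxa9 in DM at 3.46, above Hoxa6 (3.32) and Hoxa5 (3.21), and in WT Hoxa9 came before Hoxa7 and Hoxa3 before Hoxa4, the last pair with overlapping ranges.

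Hoxa9 carried 30.1% ± 3.1 (SD, n = 3) of the summed per-length level of the 8 members in WT and 16.7% ± 0.956 in DM. Hoxa7 carried 30.4% ± 1.89 and 24.2% ± 0.534, while Hoxa6 went from 9.15% ± 0.628 to 14.9% ± 0.236. Because rlog shrinks low genes more than high ones, these shares are not true proportions of transcripts. The part of that shrinkage in their shifts was not tested.

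On the rlog scale, neighbouring members were lowered by unequal amounts in these libraries. Within libraries, Hoxa9 exceeded Hoxa10 by 2.6, 2.31 and 2.01 in WT and by 1.1, 1.09 and 1.25 in DM, a difference of -1.16 between the groups. The mean of Hoxa3 to Hoxa7 lay below the mean of Hoxa9 and Hoxa10 by more in WT, where this difference was -2.08 ± 0.0933 (SD, n = 3), than in DM, where it was -1.35 ± 0.0574, a difference of 0.74. These averages do not order single members: Hoxa7, in the first mean, changed by -1.19 and Hoxa10, in the second, by -0.55. Hoxaas3 lay closer to its coding neighbours in DM, by 0.15 for Hoxa3, 0.26 for Hoxa5 and 0.12 for Hoxa6. In each of these 5 comparisons the groups did not overlap, and the two-sided exact permutation p was 0.1 (0.1 after Benjamini-Hochberg adjustment), the smallest that 3 against 3 allows. Because rlog shrinks low genes more than high ones, these differences on the rlog scale are not differences in true fold.

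The rest of the cluster gave little signal. The window from the first to the last Hoxa gene, 105.3 kb long, holds 31 genes of the table, of which 23 are not among the 8. Of these 23, 9 are listed at 0 in all libraries and 1 had a mean of at least 3. It was not called by limma (0 of 1, and 0 at an unadjusted p under 0.05), with a change of at most 0.02 in size. The 22 untested genes had means of at most 2.75 and changes of at most 0.06 in size.

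Within 1000 kb on either side, a distance chosen after the values of the members were seen, 10 genes were tested. The median change of these 10 flanking genes was 0.04. Cbx3, which encodes a heterochromatin protein, changed by -0.25 (SE 0.0707, limma adjusted p 0.0418) and Snx10, which encodes a sorting nexin, by 0.46 (SE 0.0988, adjusted p 0.0146). Cbx3 lost its call in 6 of 14 alternatives, including the omission of WT replicate 1 or 2 or of any one DM library. Snx10 lost it when WT replicate 1 or DM replicate 2 was omitted. The other 8 of the 10 were not called. Of all tested genes, 13.9% were called in either direction. The 10 changes ran from -0.25 to 0.46. On the rlog scale the fall of Cbx3 was larger than those of Hoxa3, Hoxa4 and Hoxa6. Cbx3 averaged 10.81 in WT, far above those members, whose changes rlog understates, so these falls cannot be ranked by true size. Whether members and flanking genes differed was not tested.

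Other Hox clusters were mostly at low values. Of 10 HoxB genes, 3 were tested and limma called 0 of 3 (0 at an unadjusted p under 0.05). Of all tested genes, 13.9% were called in either direction. Hoxb4, a HOX factor known for expanding stem cells, read 7.29, 7.21 and 7.22 for WT, then 7.06, 7.13 and 7.41 for DM. The groups overlapped, with a change of -0.04 (SE 0.0939, adjusted p 0.816). Hoxb3 changed by -0.04 (SE 0.0581, adjusted p 0.705) and Hoxb2 by -0.1 (SE 0.0666, adjusted p 0.345). None of the 9 HoxC or 9 HoxD genes reached a mean of 3.

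None of the 9 genes of the MEIS, PBX and PKNOX families, the DNA-binding partners of HOX proteins, was called lower. All 9 were tested, 1 was called higher, and 3 had an unadjusted p under 0.05. Meis1, the partner that acts with HOXA9 in stem cells and leukaemia, read 10.91, 10.62 and 10.69 in WT and 10.88, 10.55 and 10.52 in DM, a change of -0.09 (SE 0.109, adjusted p 0.626). Meis2 had the largest change of the list, -0.42 (SE 0.13, adjusted p 0.0569), with every DM library below every WT library, and passed the threshold in 5 of 14 alternatives. Pbx3 was higher in every DM library, by 0.24 (SE 0.0729, adjusted p 0.0591), and passed the threshold in 4 of 14 alternatives. Over all tested genes, 4.71% were called lower, 9.2% were called higher and 35.8% had groups apart in either direction. Meis3 was the called gene, at 0.32 (SE 0.0937, adjusted p 0.0487), but lost its call in 9 of 14 alternatives, including the omission of WT replicate 1 or 3 or of any one DM library.

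Of 18 genes for proteins known to activate or repress the locus (MLL, DOT1L, elongation, Polycomb and CDX factors), 15 were tested, 2 were called lower and 1 higher. The shares of all tested genes were 4.71% lower and 9.2% higher. Besides Mllt3, Suz12, a Polycomb subunit, changed by -0.27 (SE 0.0724, limma adjusted p 0.035). Bmi1, another Polycomb subunit known for stem cell self-renewal, changed by 0.33 (SE 0.0758, adjusted p 0.0205). Suz12 lost its call in 5 of 14 alternatives, including the omission of WT replicate 1 or 2 or of DM replicate 2 or 3. Bmi1 lost its call in 4, among them without WT replicate 1 and without DM replicate 1 or 2. The 3 Cdx genes had means below 3. The median change of the 15 was 0.02.

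A list of 10 genes reported as activated with HOXA9 and MEIS1 moved in both directions. Of the 10, all tested, 2 were called lower and 3 higher, with a median of -0.12. Among all tested genes 4.71% were called lower and 9.2% higher. Camk2d, a calmodulin-dependent kinase, rose by 0.78 (SE 0.136, limma adjusted p 0.00723), and Igf1, a growth factor, by 0.74 (SE 0.182, adjusted p 0.0254). Myb, a transcription factor of progenitors, fell by 0.65 (SE 0.133, adjusted p 0.0127), and Bcl2, a survival gene, rose by 0.35 (SE 0.0906, adjusted p 0.0309). Flt3, a progenitor receptor, fell by 0.3 (SE 0.0878, adjusted p 0.0494). Camk2d kept its call in 14 of 14 alternatives. Flt3 lost it in 10 of 13, including the omission of WT replicate 1 or 3 or of any one DM library. Bcl2 lost it in 6 of 14, including the omission of WT replicate 1 or 3 or of DM replicate 1 or 2. Igf1 lost it in 3 of 14, when WT replicate 1 or DM replicate 2 or 3 was omitted, and Myb in 2 of 14, when DM replicate 2 or 3 was omitted.

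Across the 6 libraries, the genes outside the cluster whose mean-centred values lay nearest to those of Hoxa9 by Euclidean distance were BC035044 (distance 0.24), Prss57 (0.29), Plppr3 (0.3), Gfi1 (0.39) and Nkg7 (0.48), where the distance of Hoxa9 from a flat profile was 2.14. Their changes ran from -1.54 for Gfi1 to -1.94 for Plppr3. Gfi1 encodes a transcriptional repressor of the granulocyte lineage, and Prss57 a neutrophil serine protease. Of these 5, all but Nkg7 lie across the annotated bounds of a gene on the opposite strand, Plppr3 among others those of Prtn3. Bounds and not exons were compared here, so whether reads could be shared is not known. Nearest to the mean profile of the 7 coding members were Rab27a (0.1), Spag5 (0.11), Smtn (0.12), Cdc6 (0.13) and Mfsd2a (0.13), of which only Smtn has such an overlap of bounds. Within the cluster Hoxa9 and Hoxa7 were each other's nearest member (0.72), as were Hoxa4 and Hoxa6 (0.04). These distances describe 6 libraries in 2 groups, and any gene with a fall of like size comes near.

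Markers of several cell types moved with the HoxA members, so their levels are given beside them. For comparison, 4.71% of all tested genes were called lower, 9.2% higher, and 35.8% had groups apart in either direction. The log2 of the summed linear values of the 8 HoxA members ran from 8.57 to 8.89 in WT and from 7.58 to 7.66 in DM. The progenitor list, all 12 genes tested, ran from 15.69 to 15.96 in WT and from 15.65 to 16.15 in DM, with 1 called lower and 2 higher, Procr at 0.73 (SE 0.127, limma adjusted p 0.00705) and Mecom at 0.52 (SE 0.118, adjusted p 0.0189). The Mecom call was lost in the fit that lacked DM replicate 2, where its adjusted p was 0.0516. Procr and Mecom are stem cell genes, and both were higher in every DM library than in any WT library. In the same list Hlf was lower in every DM library than in any WT library, by 0.25 (SE 0.0793, limma adjusted p 0.0689). Flt3 was the gene called lower, and the median change of the 12 was 0.01. Kit (14.39 in WT, 14.6 in DM) and Gata2 (14.29 in WT, 14.27 in DM) had the highest values of the progenitor list and weigh most in its sum. As both are also in the mast cell and basophil list, the overlap of the sums does not show the level of progenitors alone.

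The neutrophil list ran from 18.55 to 18.98 in WT and from 17.15 to 18 in DM, with 13 of 14 tested genes called lower and 0 higher. The remaining gene, Mmp8, a collagenase of later neutrophil granules, changed by 0.5 (SE 0.149, limma adjusted p 0.0521). Every DM library was above every WT library for Mmp8, where 35.8% of all tested genes had groups apart in either direction. The largest falls of the list were in the granule genes Mpo (-4.23), Elane (-3.96) and Prtn3 (-3.37) and in Ms4a3 (-2.7), a membrane protein gene of granulocyte progenitors. The monocyte and macrophage list ran from 18.28 to 18.97 in WT and from 19.27 to 19.63 in DM, with 8 of 13 called higher and 2 lower. In this list Gpnmb, Ctss (0.96 each) and Cd68 (0.94) rose, and Ly6c2, a marker of inflammatory monocytes, fell by 1.13. C1qa was below a mean of 3. Beside these counts, 4.71% of all tested genes were called lower and 9.2% higher. In bulk RNA fewer cells of a type and less RNA per cell cannot be told apart, and the part of these shifts in the HoxA values was not tested.

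**Figure D4:**
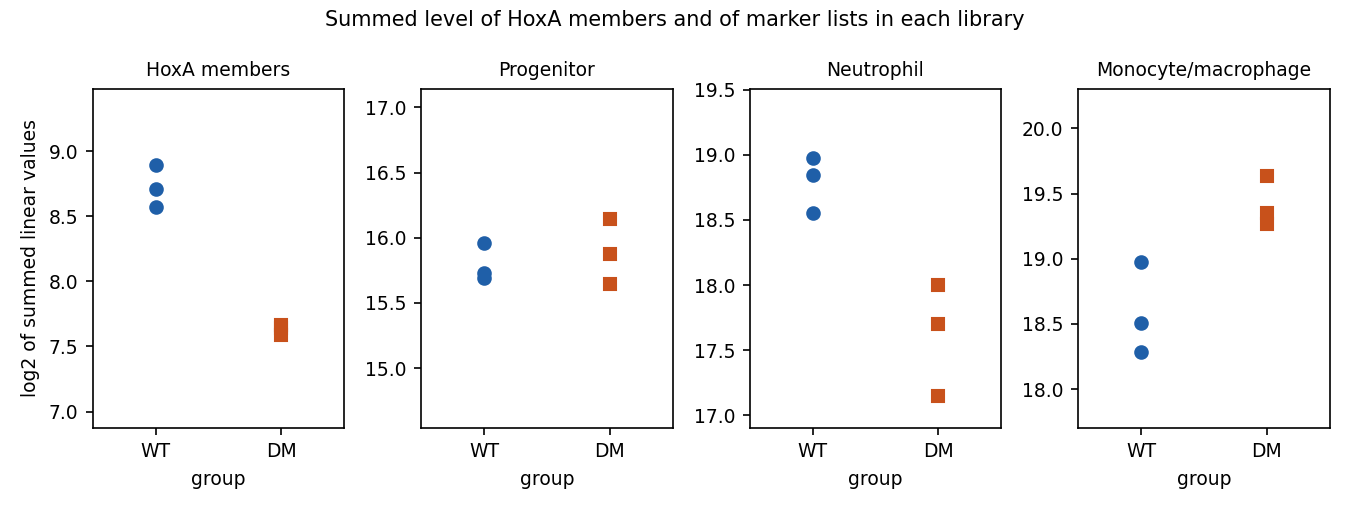
Log2 of the summed linear values (vertical axes, all spanning the same width) of the 8 HoxA members and of 3 marker lists in each WT library (circles) and DM library (squares). The groups are apart for HoxA, neutrophil and monocyte and macrophage genes, and overlap for progenitor genes. The progenitor sum rests mostly on Kit and Gata2, which are also in the mast cell and basophil list.

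The lymphoid and megakaryocyte sums were also apart between the groups, and those of the other lists overlapped. The mast cell and basophil list ran from 18.96 to 19.33 in WT and from 18.98 to 19.46 in DM. In it 1 of 12 was called in each direction, against 4.71% of all tested genes called lower and 9.2% higher. The megakaryocyte list ran from 14.23 to 14.49 and from 14.51 to 14.89, with 2 of 8 called higher, against 9.2% of all tested genes. The erythroid list ran from 12.91 to 13.02 and from 12.69 to 12.99, with 0 of 9 called by limma (0 at an unadjusted p under 0.05). The lymphoid list ran from 11.31 to 11.98 and from 12.3 to 12.49, with 1 of 6 called in each direction and Cd3e, Cd3g and Ms4a1 among those below a mean of 3. Il7r, which encodes a cytokine receptor chain, was the gene called higher in that list, at 0.79 (SE 0.148, adjusted p 0.0094), and kept its call in 14 of 14 alternatives. The lymphoid sum is almost that gene alone: Il7r averaged 11.56 in WT and 12.35 in DM, and the next highest, Cd79b, 5.11 and 4.84. Of the 6 tested lymphoid genes, 5 had a lower mean in DM, and the median change was -0.1. The stromal and endothelial list ran from 12.63 to 12.78 and from 12.59 to 12.83. Of its 8 tested genes 2 were called lower, against 4.71% of all tested genes.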

How the data were processed

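RNA was sequenced from 3 WT and 3 DM libraries, and the authors deposited 1 table of rlog values on the log2 scale, as read from its name and its values. The submitters' processing notes name cutadapt 2.6, STAR 2.7.3, DESeq2 1.30.0 and the build mm10; the counting tool, the use of strand and the annotation are not given in the sources used here. The 142699 lines were merged to 55487 genes with identical repeats, and GENCODE M21 (GRCm38) supplied coordinates and exon lengths for 54349 (97.9%). DM and WT were compared with limma 3.58.1 (lmFit, eBayes with a mean-variance trend, prior degrees of freedom 5.82) in R 4.3.3, restricted to the 18766 whose average was 3 or more, with Benjamini-Hochberg adjustment and a threshold of 0.05; no covariate was used. The test was checked on simulated data with independent normal noise and added changes larger than those of Hoxa3, Hoxa4, Hoxa5 and Hoxa6. That check says nothing on changes as small as theirs. A change is a difference of mean rlog values, and differences between members were tested by exact permutation over 20 assignments of the libraries.

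The members, lists and tests were chosen with earlier results of these data known. The text names the 8 members, Mllt3, Meis1, Pbx3 and Kit, up to 4 called genes with the largest change from the regulator, cofactor, HOXA9 and MEIS1, progenitor, neutrophil and monocyte lists (the other marker lists mainly by counts), and the 5 genes nearest to Hoxa9 and to the mean coding profile. Flt3 is named as a called gene of the progenitor list. Hoxb2, Hoxb3, Hoxb4, Meis2, Mmp8, Il7r, Cd79b, Gata2, Hlf, Cbx3, Snx10 and the markers below a mean of 3 were added after their values were seen. Not every gene of the cluster or of the lists is reported here. Alternatives were other filters, priors, scalings and gene sets, a replicate block and leaving out each library. Homeodomains were not compared. Figures were drawn with matplotlib 3.10.9.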

Additional observations from a re-analysis of the deposited data

How the results depend on the processing

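Hoxa7, Hoxa9 and Hoxa10 kept their direction and call in 14 of 14 alternatives and Hoxa5 in 13 of 13, with ranges of -1.26 to -1.09, -1.85 to -1.59, -0.59 to -0.49 and -0.33 to -0.23. The number of members called lower was 7 as deposited, 4 after quantile normalization and 3 with a mean of at least 5, where 3 were tested. It ran from 4 to 7 when each library was left out, with 4 without WT replicate 1 and without any one DM library. Quantile normalization gave -0.12 for Hoxa3 (adjusted p 0.105), -0.09 for Hoxa4 (0.218) and -0.1 for Hoxa6 (0.133); it took the median of the 5318 tested genes with a mean under 5 from -0.06 to 0.0, and the share of called genes that were lower from 33.9% of 2611 to 48.7% of 2654. Hoxa4 also lost its call, at -0.15, without the filter (adjusted p 0.0626), without the trend (0.0891) and among protein-coding genes and members only (0.073), and Hoxa6, at -0.16, without the trend (0.0737) and among protein-coding genes and members only (0.055). With libraries left out in turn, Hoxa3 ran from -0.2 to -0.18, Hoxa4 from -0.16 to -0.13 and Hoxa6 from -0.17 to -0.14. With fewer libraries in the fit, fewer degrees of freedom remain; the cause of the other losses was not tested. Hoxaas3 ran from -0.06 to -0.02 when libraries were left out. The 5 differences between members kept their direction in every alternative run.

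Replicate numbers were not treated as pairs: the correlation of deviations from the group means was 0.491 for number 1, 0.116 for number 2 and 0.041 for number 3, and WT replicate 3 correlated best with DM replicate 2 (0.124). With the replicate block, 3742 genes were called against 2611, and 6 of the members; Hoxa4 (-0.15, adjusted p 0.0575) was not. With the longest transcript in place of the union exon length, the WT per-length levels were 2.86 for Hoxa3, 5.71 for Hoxa7, 5.99 for Hoxa9, 4.01 for Hoxa10 and 1.85 for Hoxaas3, which put Hoxa9 above Hoxa7. The depth is unknown, so the precision of the low members could not be set against counting error.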
